A study of Mus musculus with 6 samples.

Results

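T cells were 60 of the 22157 single cells that could be assigned to a mouse brain sample in a sort for CD11b+ cells, an integrin-based gate meant for myeloid cells. They were chosen by RNA alone: a cell had at least 3 UMIs (distinct molecules) of the CD3 chain genes Cd3e, Cd3d and Cd3g together, at most 2 of the NK receptor genes Klre1 and Klrb1c, and at most 1 of the microglia and macrophage genes P2ry12, Tmem119 and Ms4a7. All cells also had at least 500 RNA UMIs, under 10% mitochondrial UMIs and a leading hashtag with at least 80% of their hashtag UMIs. Levels of RNA in these cells against other cells are therefore given as descriptions with no test, and the antibody tags are tested, other than Tmem119, whose gene was part of the rule.

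CITE-seq, which reads RNA together with antibodies that carry DNA tags, was run on brains of C57BL/6 mice that were 12 weeks old. Each of 3 pools mixed 6 hashed samples: female tumor at day 14, female tumor at day 21, male tumor at day 14, male tumor at day 21, and female and male controls without tumor. Tumor-bearing hemispheres or whole control brains were taken after perfusion with saline to wash out blood cells. The labels do not say which hashtag marked which group, so sex, tumor and day cannot be compared. Each sample is called by its pool and its hashtag, and the same hashtag in another pool may mark another group. The cells set beside the T cells were 524 NK cells, 10672 microglia and 3519 macrophages of the same samples, picked by their own RNA.

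T cells carry an antigen receptor that signals through the CD3 chains. CD4 marks helper and regulatory cells, CD8 marks cells able to kill, and FOXP3 is the defining factor of regulatory T cells. After activation, T cells put on costimulatory receptors such as ICOS and OX40 (gene Tnfrsf4) and the brakes CTLA-4, PD-1 and LAG-3. In a tumor-bearing brain such cells enter from the blood, whereas microglia live there.

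The pools held 10908, 9353 and 1896 assigned cells in pools 1, 2 and 3, with 22, 27 and 11 T cells. T cells had a median of 6180 RNA UMIs, against 3068.5 in NK cells, 4948.5 in microglia and 10087 in macrophages. Between pools, 32 to 53 cell barcodes were shared, none of them from a T cell. In pool 3, 9864 barcodes had no leading hashtag at the 80% level, and 0 of these met the RNA limits.

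The threshold on CD3 UMIs fell in a gap. No cell had exactly 3 UMIs, 4 cells had exactly 4 and lay just inside, and 8 cells had exactly 2 and lay just outside. Of the 4 cells with 4 UMIs, 2 held Icos, 0 held Trac and 3 held Trbc2, and of the 8 cells with 2 UMIs, 3 held Icos, 5 held Trac and 4 held Trbc2. Before the other limits 81 cells had 3 or more CD3 UMIs, of which 9 went over the NK limit and 12 over the myeloid limit. All 3 CD3 genes were read in 55 of the 60 cells, with a median of 16 CD3 UMIs and a highest value of 72.

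The CD3 genes lie side by side on chromosome 9, with 1.34 kb between Cd3g and Cd3d and 11.7 kb between Cd3d and Cd3e (RefSeq, GRCm38.p6). Cd3d was read in 59 cells, Cd3g in 58 and both together in 57. The sequences upstream of this pair of neighbours are shown because their transcripts chose the cells; each runs 5′ to 3′ on the gene's strand, from 250 to 21 bases before the transcript start in the RefSeq promoter table. For Cd3d that start lies inside the annotated gene span, which begins just after the printed window. Capitals mark CACCTG or its reverse complement CAGGTG, an E-box form, searched on both strands.
Cd3g, chr9:44980452-44980681, minus strand: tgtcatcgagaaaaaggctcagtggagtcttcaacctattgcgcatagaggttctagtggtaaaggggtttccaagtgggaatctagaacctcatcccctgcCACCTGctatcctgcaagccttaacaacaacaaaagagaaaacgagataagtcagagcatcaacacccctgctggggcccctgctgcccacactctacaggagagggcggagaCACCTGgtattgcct
Cd3d, chr9:44981536-44981765, plus strand: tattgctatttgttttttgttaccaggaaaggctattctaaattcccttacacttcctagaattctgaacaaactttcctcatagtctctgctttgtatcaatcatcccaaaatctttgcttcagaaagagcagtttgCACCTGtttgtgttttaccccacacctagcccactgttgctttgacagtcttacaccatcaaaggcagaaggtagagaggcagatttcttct
The E-box form was present 2 times for Cd3g, beginning 148 and 35 bases before that start, and 1 time for Cd3d, beginning 112 bases before it. Of 32851 RefSeq upstream windows of the same 230 bases, 5261 (16%) held it. The motif was picked after these sequences were read, and a match is a description of letters only.

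All 60 T cells came from samples under hashtags 3 to 6, and each of those 12 samples had at least 1. T cells made up 0.202% of assigned cells in pool 1 (95% Clopper-Pearson interval 0.126% to 0.305%), 0.289% in pool 2 (0.190% to 0.420%) and 0.580% in pool 3 (0.290% to 1.04%). The highest share was 1.70% under hashtag 5 of pool 3, where 6 of 353 cells were T cells (0.626% to 3.66%). The samples with most T cells were hashtag 4 of pool 1 with 14 of 2212 cells (0.633%), hashtag 4 of pool 2 with 11 of 2072 (0.531%) and hashtag 5 of pool 2 with 9 of 1681 (0.535%). Under hashtags 1 and 2, 0 of 5072 cells were T cells, which allows a share of up to 0.0592%, while 7 NK cells were found there. Within single samples the limit that a count of 0 allows ran from 0.155% to 2.68%, so for the small samples of pool 3 a share like that of other samples was not detectable. Across the pools there were 11.45 T cells per 100 NK cells, with 7.46, 14.4 and 26.8 in pools 1, 2 and 3. These intervals and limits cover counting error only, and a share of sorted cells is not a share of the cells of the brain.

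**Figure D1:**
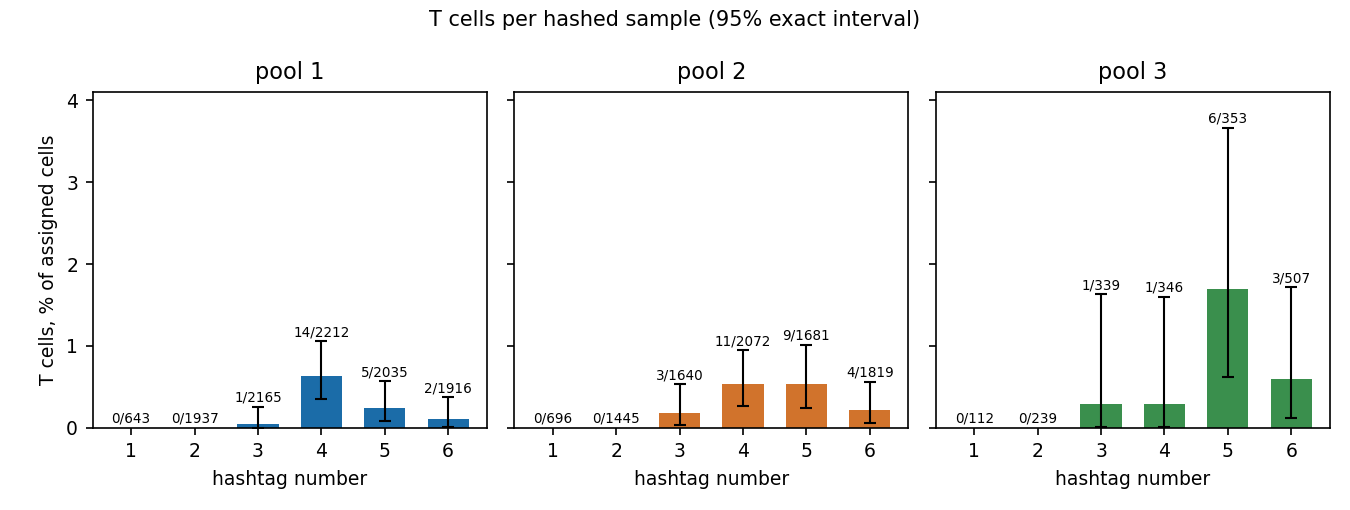
T cells as a percentage of assigned cells (vertical axis) in each hashed sample (horizontal axis, hashtag number), with 95% exact intervals and the counts above each bar. All 60 T cells lie under hashtags 3 to 6, with the highest share, 6 of 353 cells, under hashtag 5 of pool 3.

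The cells bore the genes of the T cell receptor complex. Trac, the constant region of the alpha chain, was read in 51 of 60 cells and Trbc2, of the beta chain, in 59. Trac stood at 899.9 CPM (a gene's summed UMIs scaled to a common library total) in T cells, against 25.7 CPM in NK cells and 0.141 CPM in microglia. Cd5, a surface receptor that tunes T cell signalling, was in 29 T cells and had 0 UMIs in NK cells. Of the 16 genes on the list for CD3 and signalling, 11 were more than 2-fold higher in T cells than NK cells in each of the 3 pools and 0 were lower. Over all 7591 genes with enough UMIs the same rule counted 3.4% higher and 5.24% lower; since the cells were chosen on this contrast, the list counts are descriptions only. The gamma delta genes were nearly unread: Trdc had 8 UMIs in 1 T cell, and Tcrg-C2 and Zbtb16 had none.

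Icos, Ctla4 and Tnfrsf4 were read in most T cells. Icos, the inducible costimulator, stood at 778, 751 and 623 CPM in T cells of pools 1, 2 and 3, against 32.0, 33.7 and 32.6 CPM in NK cells. It was in 50 of 60 T cells, 9.54% of NK cells and 0.984% of microglia. Ctla4, which competes for the ligands of the costimulator CD28, stood at 501, 780.5 and 488 CPM in T cells, against 18.3, 31.2 and 6.52 CPM in NK cells. It was in 40 T cells, 3.82% of NK cells and 0.150% of microglia.

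Tnfrsf4, which encodes OX40, came out on top when genes with at least 50 UMIs in T cells were ordered by the ratio of CPM + 1 in T cells to CPM + 1 in NK cells. It stood at 1117, 884.5 and 339 CPM in T cells of pools 1, 2 and 3, while NK cells held 2 UMIs in all, 1 in each of pools 1 and 2. The summed ratio was 791 with a 95% counting interval from 218 to 6549. It was in 43 T cells and 0.600% of microglia. At its start, its annotated span overlaps that of its upstream neighbour Sdf4 by 16 bases on the same strand. Reads there cannot be told apart, and their number was not tested. The other leading genes of that ordering were Ccl1, Cd4, Pdcd1, Cd3e, Cd3g, Cd8b1, Ccl17, Lgals7 and Cd3d, of which the 3 CD3 genes served to choose the cells. Ccl1, Cd4, Pdcd1, Cd8b1, Ccl17 and Lgals7 had 0 UMIs in NK cells, so their ratios have no upper bound and their order against Tnfrsf4 follows from the added 1. Ccl1, Ccl17 and Lgals7 came from 6, 4 and 8 cells. Of the 93 Ccl17 UMIs, 66 lay in 3 of the 13 T cells with at least 30 Cd74 UMIs, which are described below.

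The order of the populations was the same at equal depth. With every cell thinned to 1000 RNA UMIs, Icos was kept in 45% of T cells, against 2.69% of NK cells and 0.10% of microglia. Ctla4 was kept in 28.3% of T cells, against 1.92% of NK cells, and Tnfrsf4 in 50% of T cells, against 0% of NK cells. All 60 T cells, 520 of 524 NK cells and 2000 of the microglia entered the thinning. Icos, Ctla4 and Tnfrsf4 were all read in 33 T cells, while 12 cells held a pair of them, 10 held 1 and 5 held none.

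Ctla4 and Icos are neighbours on chromosome 1, with 44.9 kb between them, and Cd28 lies 136 kb before Ctla4. Tnfrsf4 and Tnfrsf18, the gene of the costimulator GITR, lie 9.71 kb apart on chromosome 4. Tnfrsf18 was in 47 T cells, and 36 cells held Tnfrsf4 and Tnfrsf18 together, 7 only Tnfrsf4, 11 only Tnfrsf18 and 6 neither. Tnfrsf18 stood at 571 CPM in T cells, against 161 CPM in NK cells, which express it too. Of the 9 costimulation genes, 5 were more than 2-fold higher in T cells than NK cells in all pools and 0 lower, and 4-1BB (Tnfrsf9) was in 34 cells and Cd28 in 42.

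The list of checkpoint genes gave 5 of 9 measured members higher and 0 lower by the same rule. Pdcd1, which encodes PD-1, was in 31 T cells at 284 CPM, with 0 UMIs in NK cells and 6.82 CPM in microglia. Lag3, a receptor for MHC class II, was in 35 T cells at 511 CPM, against 11.5 CPM in NK cells. Microglia held Lag3 at 432 CPM in 77.5% of cells, so a Lag3 UMI alone does not set T cells apart in these data. Havcr2 (TIM-3) stood at 80.2 CPM in T cells, against 5.47 CPM in NK cells and 127 CPM in microglia. Tigit, the gene of an inhibitory receptor for nectin-family ligands, was in 6 T cells.

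Against NK cells, a factor of recirculating cells was lower and a receptor of tissue T cells was higher, while their lists went both ways. Klf2, a factor that keeps the exit receptor S1pr1 on, stood at 316, 179 and 27.1 CPM in T cells of pools 1, 2 and 3, against 1114, 651 and 528 CPM in NK cells. Cxcr6, a chemokine receptor of tissue T cells, was in 34 T cells and stood at 268 CPM, against 8.20 CPM in NK cells. Il7r, the receptor for the survival factor interleukin-7, was in 39 cells at 325 CPM, against 4.92 CPM in NK cells and 56.8 CPM in microglia. Klf2 stood at 192 CPM over all T cells, against 804 CPM in microglia and 170 CPM in macrophages. Of the 9 naive and memory genes, 2 were higher and 3 lower in T cells than NK cells. Of the 18 traffic and residence genes, 2 were higher and 4 lower. Ccr7, on the first list, was in 12 T cells, and Zfp683, on the second, had 0 UMIs in T cells.

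Killing genes were lower in T cells than in NK cells. Gzma (granzyme A) stood at 2673, 211 and 2397 CPM in T cells of pools 1, 2 and 3, against 20396, 19420 and 17388 CPM in NK cells, and was in 11 of 60 T cells. Prf1, the pore former perforin, stood at 82.2 CPM in T cells, against 1147 CPM in NK cells. Gzmb (granzyme B) was closer, at 1481 CPM in 27 T cells, against 4008 CPM in NK cells. Ifng, the gene of interferon gamma, stood at 116, 800.0 and 609.5 CPM in T cells, against 332, 229 and 228 CPM in NK cells, so pool 1 went the other way from pools 2 and 3. Of the 16 genes on the CD8 and cytotoxic list, 2 were higher and 6 lower in T cells in all pools.

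**Figure D2:**
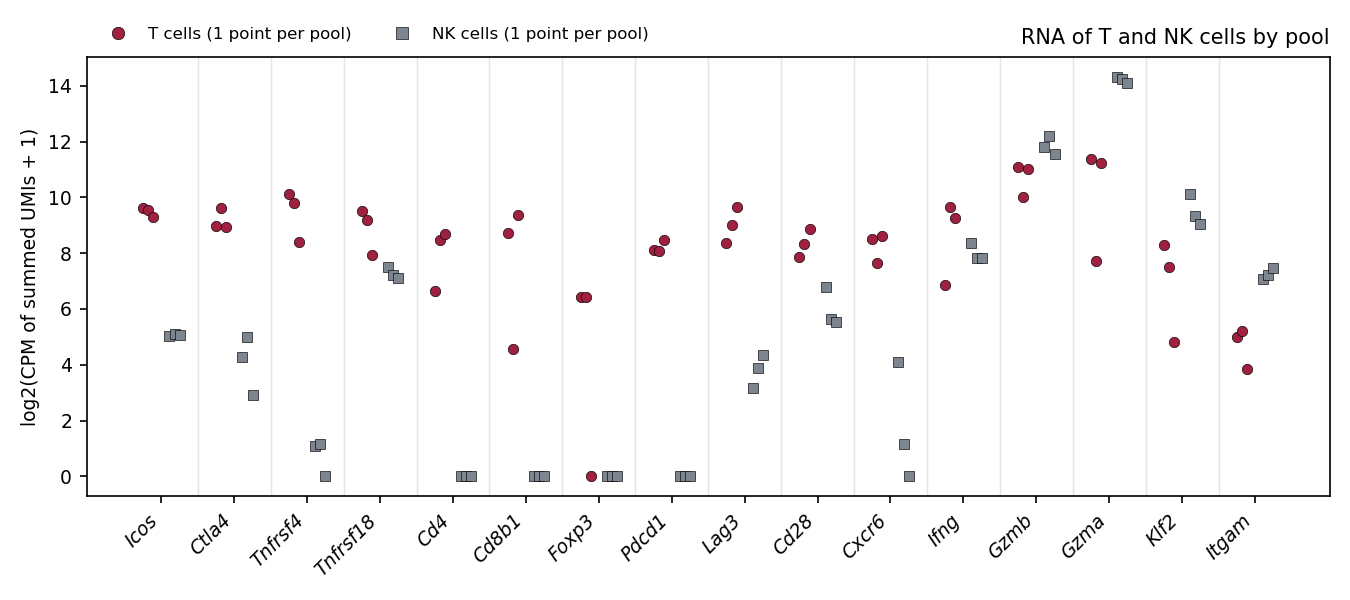
RNA of T cells (circles) and NK cells (squares) as log2 of CPM of summed UMIs plus 1 (vertical axis), 1 point per pool for 16 genes. For Icos, Ctla4 and Tnfrsf4 the 3 T cell points lie above the 3 NK cell points; for Gzma, Klf2 and Itgam they lie below.

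Several cytokine genes were not read. Il17a, Il4, Il2 and Csf2 had 0 UMIs in the 511148 UMIs of the T cells, and Il13 had 1. Tbx21, the factor of interferon gamma producing helper cells, was in 10 cells, Gata3, that of type 2 cells, in 14, and Maf, a factor of several helper kinds, in 41. Of the 14 helper factor and cytokine genes, 2 were higher and 1 lower in T than NK cells in all pools, and of the 13 helper and regulatory genes, 8 were higher and 0 lower. Among 10 cycle genes 3 were higher in T than NK cells in all pools, and the proliferation marker Mki67 was in 9 of 60 cells, with 58.1% of its UMIs in 1 cell. Of the 12 interferon response genes 2 were higher and 0 lower.

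Cd4 was read in 34 T cells and Cd8a or Cd8b1 in 11, with 33 cells holding Cd4 alone, 10 Cd8 alone, 16 neither and 1 both. The cell with both had 46486 RNA UMIs, the most of any T cell. Cells with neither had a median of 4558 RNA UMIs, against 7779 in Cd4 cells and 5816 in Cd8 cells. NK cells had 0 UMIs of Cd4, Cd8a and Cd8b1, and microglia had Cd4 in 0.0656% of cells. Pool 1 gave 8 Cd4 and 5 Cd8 cells, pool 2 gave 20 and 1, and pool 3 gave 5 and 4. Under hashtag 4 of pool 2 all 11 T cells were Cd4 cells, while under hashtag 5 of pool 3, 2 were Cd4 and 4 were Cd8 cells.

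Foxp3 was read in 11 T cells, 5 in pool 1, 6 in pool 2 and 0 in pool 3, with at most 12 UMIs in a cell. It had 0 UMIs in NK cells and was in 0.0281% of microglia. The count of 0 among the 11 cells of pool 3 allows a share of up to 27.3% of cells with a Foxp3 UMI. Of the 11 Foxp3 cells, 6 were Cd4 cells, 4 held neither and 1 was the cell with both. All 11 held Icos, Tnfrsf4 and Tnfrsf18, and 10 held Ctla4. Among the other 49 T cells, Icos was in 39, Tnfrsf4 in 32, Tnfrsf18 in 36 and Ctla4 in 30. Ikzf2, which encodes the regulatory cell factor Helios, was in 10 of the 11 Foxp3 cells and 9 of the other 49. Il10 was in 6 of the 11 Foxp3 cells and 5 of the 49, and Gzmb in 9 of the 11 and 18 of the 49. Cxcr6 and Ifng went the other way, in 4 and 2 of the 11 Foxp3 cells, against 30 and 27 of the 49 other T cells. Cells differ in depth, so these shares are descriptions.

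**Figure D3:**
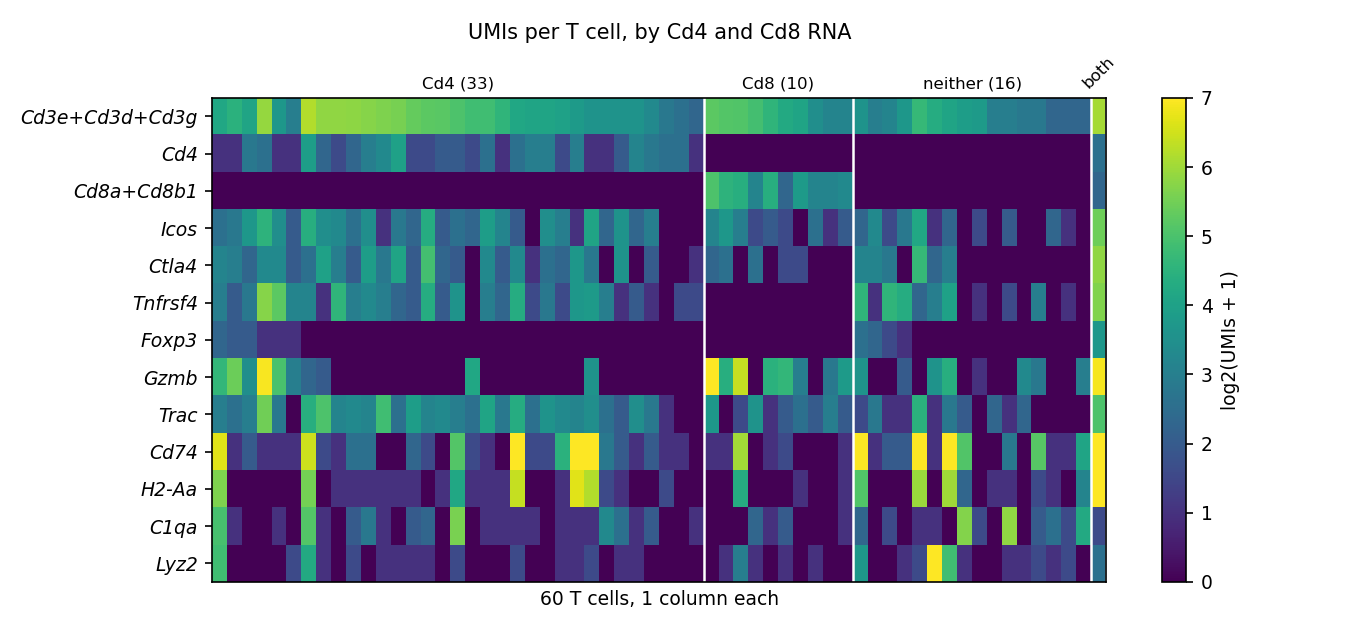
UMIs per gene (rows, log2 of UMIs plus 1) in each of the 60 T cells (columns), grouped into 33 Cd4 cells, 10 Cd8 cells, 16 with neither and 1 with both, and sorted within a group by Foxp3 and CD3 UMIs. Tnfrsf4 is blank in all 10 Cd8 cells, and Cd74 is at 30 UMIs or more in 6 Cd4 columns, 1 Cd8 column, 5 columns with neither and the column with both.

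Cd4 and Cd8 cells were compared as sums per pool with the pool as a block, because 0 hashed samples had 5 cells of each kind. The Cd8 sum of pool 2 is 1 cell. Of 474 genes tested and adjusted together, 5 had chosen the cells or the kinds and are described only. Among the other 469, edgeR's quasi-likelihood test with Benjamini-Hochberg adjustment called 0 higher and 0 lower (0% each), with 36 genes at an unadjusted p under 0.05 and 4 called by DESeq2. DESeq2 called Ccl4, Ms4a4b, Sdf4 and Tnfrsf4. The median log2 difference of all genes tested was 0.10.

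The OX40 transcript was read in most Cd4 cells and in no Cd8 cell. Tnfrsf4 stood at 1545, 923 and 572 CPM in Cd4 cells of pools 1, 2 and 3, against 0 CPM in Cd8 cells of every pool. It was in 31 of 33 Cd4 cells and 0 of 10 Cd8 cells, which allows a share of up to 30% of Cd8 cells with a UMI. Its adjusted p was 0.152 in edgeR's quasi-likelihood test over the 474 genes and 0.225 over the 469, and in the alternatives it ran from 3.44e-06 with no filter on low counts to 0.225. Maf stood at 411, 586 and 524 CPM in Cd4 cells, against 71.1, 0 and 0 CPM in Cd8 cells (log2 difference 3.89 ± 0.98 SE, edgeR adjusted p 0.3). Tnfrsf9 stood at 606, 705 and 381 CPM in Cd4 cells, against 178, 0 and 80.2 CPM in Cd8 cells (2.37 ± 0.71 SE, edgeR adjusted p 0.411). For Maf and Tnfrsf9 the lowest Cd4 sum was above the highest Cd8 sum, as it was for Sdf4 and other genes of the fit. The share of the 469 genes with such a gap was not counted, so it does not set Maf and Tnfrsf9 apart.

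Icos stood at 939, 789 and 762 CPM in Cd4 cells, against 889, 678 and 522 CPM in Cd8 cells, and was in 29 of 33 Cd4 and 9 of 10 Cd8 cells. Its log2 difference was 0.36 ± 0.41 SE (edgeR adjusted p 0.842). Ctla4 stood at 645, 749.6 and 595.5 CPM in Cd4 cells, against 249, 0 and 441 CPM in Cd8 cells (1.39 ± 0.67 SE, edgeR adjusted p 0.748).

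Granzyme genes were read in most Cd8 cells of pools 1 and 3. Gzmk (granzyme K) was in 0 of 33 Cd4 cells and 8 of 10 Cd8 cells. Gzma stood at 0, 54.6 and 23.8 CPM in Cd4 cells of pools 1, 2 and 3, against 12340, 0 and 7062 CPM in Cd8 cells, and was in 4 of 33 Cd4 and 6 of 10 Cd8 cells. The chemokine gene Ccl5 stood at 411, 1509 and 2001 CPM in Cd4 cells, against 25747, 0 and 27284 CPM in Cd8 cells. Its log2 difference was -3.13 ± 1.82 SE (edgeR adjusted p 0.842), with pool 2's lone Cd8 cell at 0. Gzma and Gzmk fell under the filter on low counts and were not tested there. With no such filter, edgeR called Gzma (log2 difference -6.03, adjusted p 1.16e-14) and Ccl5 (-2.92, adjusted p 2.72e-08) lower in Cd4 cells. It did not call Gzmk (-5.75, adjusted p 0.126). In pool 2 both Gzma and Ccl5 went the other way, and 1 T cell held 46.9% of all Gzma UMIs in T cells. The calls thus depend on the filter and rest on 3 pools, of which pool 2 gave 1 Cd8 cell. Gzmb was in 10 Cd4 cells, 6 of which also held Foxp3, and in 8 Cd8 cells. Cd5, Cd40lg, which encodes the helper ligand CD40L, and Il2ra, a chain of the interleukin-2 receptor, were in 21, 11 and 13 of 33 Cd4 cells and 0 of 10 Cd8 cells.

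In raw UMIs the CD11b tag of T cells lay above that of NK cells and below that of microglia and macrophages in each pool. The CD11b tag had medians of 241.5, 192 and 56 UMIs in T cells of pools 1, 2 and 3, against 109, 61 and 36 in NK cells, 323, 262 and 165 in microglia and 1038, 704.5 and 449.5 in macrophages. In T cells it ran from 2 to 1074 UMIs, and 8 of 60 had 11 or fewer. Over all pools its median was 372 UMIs in the 13 T cells with at least 30 Cd74 UMIs, described below. The other 47 had a median of 118 UMIs, and 0 of the 13 were in pool 3. Under the 5th percentile of microglia of the same pool lay 22 of 60 T cells (36.7%) and 416 of 524 NK cells (79.4%). The transcript of CD11b, Itgam, was low: 31.3 CPM in T cells, 143 CPM in NK cells and 474 CPM in microglia. T cells also had more tags in all, with a median of 3615 protein tag UMIs, against 1631 in NK cells, 953 in microglia and 11203 in macrophages.

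The tests used centred log ratios: from ln(UMIs + 1) of each tag, the average of that quantity over the 10 tags common to all pools was taken off, which sets a tag against the others of its cell. The difference was taken within each hashed sample with at least 5 cells of each population. Only 5 samples had them, hashtags 4 and 5 of pools 1 and 2 and hashtag 5 of pool 3, and the smallest p of an exact two-sided sign permutation test is then 0.0625, so 0 of 30 differences could pass. With at least 3 cells, 8 samples entered and the smallest p is 0.00781. The labels do not tie samples to animals, so these p-values measure the spread between samples, which may be technical.

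Against NK cells, T cells had more MHCII, PD-L1 and CD74 tag and less CD49d and CD45 tag. MHCII, which presents antigen, stood at 0.66, 0.43, 0.93, 1.09 and 0.22 in T cells of the 5 samples in the order above, against -0.43, -0.53, -0.53, -0.63 and -0.57 in NK cells. The lowest T cell value was above the highest NK value. PD-L1, the ligand of PD-1, stood at -0.02, -0.09, 0.17, 0.04 and 0.12 in T cells, against -0.63, -0.55, -0.37, -0.465 and -0.29 in NK cells, also without overlap. CD49d, the alpha 4 integrin chain, stood at 0.44, 0.84, 0.41, 0.58 and 0.78 in T cells, against 1.39, 1.30, 1.51, 1.385 and 1.44 in NK cells.

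Over the 8 samples, by the exact sign permutation test with Benjamini-Hochberg adjustment over 30 differences, MHCII rose by 1.33 (adjusted p 0.0167, higher in 8 of 8 samples) and PD-L1 by 0.52 (adjusted p 0.0167, 8 of 8). CD74, a chaperone of MHC class II, rose by 0.42 (adjusted p 0.0293 in the exact test, 7 of 8 samples). Its counts were low, with medians of 11, 17 and 2 UMIs in T cells of pools 1, 2 and 3, against 3, 2 and 2 in NK cells. CD49d fell by 0.65 (adjusted p 0.0167 in the exact test, lower in 8 of 8) and CD45, the pan-leukocyte phosphatase, fell by 0.69 (adjusted p 0.0293, lower in 7 of 8). CD11b differed by -0.49, lower in 6 of 8 samples, and did not pass (adjusted p 0.0670 in the exact test). On the scale of raw tag UMIs the CD11b, CD45 and CD49d differences from NK cells turn positive. They were 0.36, 0.06 and 0.12 on the log2 scale in the 8 samples. Raw CD45 medians were 1606, 1433 and 1316 UMIs in T cells of pools 1, 2 and 3, against 989, 791.5 and 811 in NK cells. Raw CD49d medians were 291, 223 and 56 UMIs in T cells, against 171, 175.5 and 116 in NK cells. The lower CD45 and CD49d thus did not hold on average on raw tag UMIs, though the raw CD49d median of pool 3 was lower too. Among the alternatives their sign turned on raw tag UMIs only.

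Against microglia, T cells had less Tmem119 and CD11b tag and more CD45, CD49d, PD-L1 and CD52 tag. Tmem119, a microglia surface protein, differed by -2.03, lower in 8 of 8 samples, which is a description because its RNA served to choose both populations. Over the 8 samples CD11b fell by 1.30, CD45 rose by 1.73, CD49d by 0.98 and PD-L1 by 0.45, each in 8 of 8 samples (adjusted p 0.0167 in the exact sign permutation test). CD52, a glycoprotein of lymphocytes and monocytes, rose by 0.31 in 7 of 8 samples (adjusted p 0.0391, same exact test). Its counts were low, with medians of 22, 11 and 3 UMIs in T cells of pools 1, 2 and 3. Microglia had medians of 3, 3 and 2, so the added 1 weighs on this difference.

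Against macrophages CD11b fell by 0.69, Gr-1, a marker of granulocytes and monocytes, by 0.34 and PD-L1 by 0.40, while CD45 rose by 1.015, each in 8 of 8 samples (adjusted p 0.0167, same exact test). CD52 and Ly6C also passed and are not described further. The Tmem119 tag was higher by 0.59, again a description. MHCII fell by 0.51 in 7 of 8 samples (adjusted p 0.0493, same exact test). On the scale of raw tag UMIs the CD45 and Tmem119 differences turn to -0.52 and -1.13 on the log2 scale in the 8 samples. PD-L1 was thus above the level of NK cells and microglia and below that of macrophages.

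**Figure D4:**
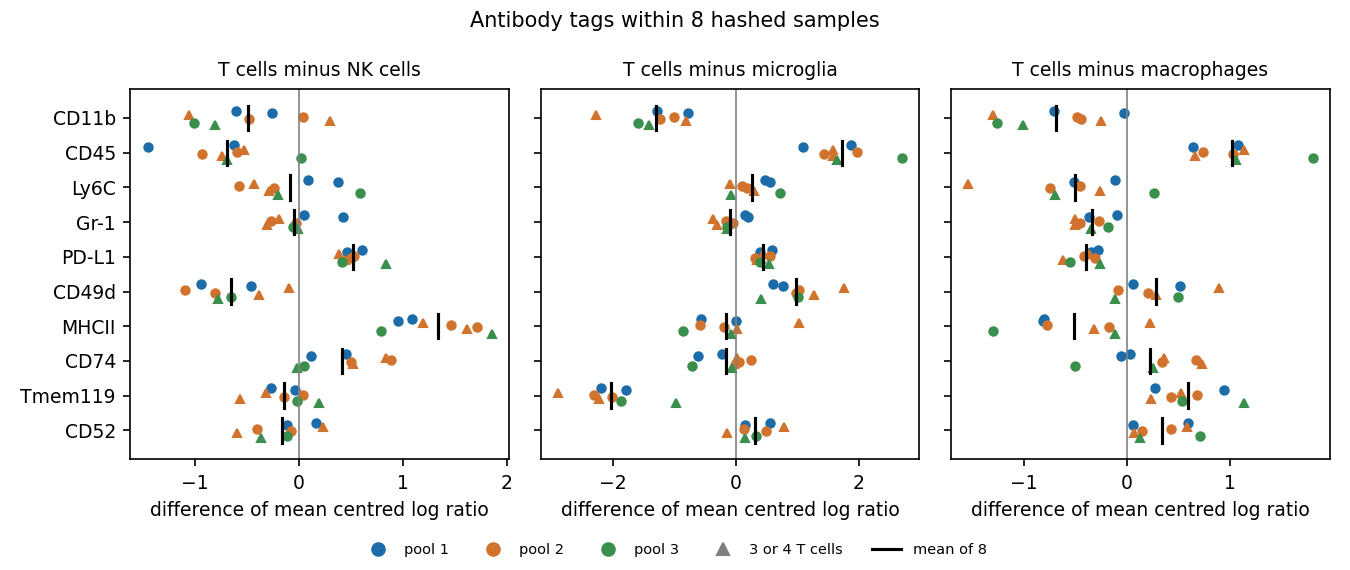
Within-sample differences of the mean centred log ratio (horizontal axis) for 10 antibody tags, T cells minus NK cells, microglia and macrophages, in 8 hashed samples coloured by pool; triangles mark samples with 3 or 4 T cells and black ticks the mean. MHCII and PD-L1 lie above 0 and CD49d below 0 in all 8 samples against NK cells, and Tmem119 lies below 0 in all 8 against microglia.

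Several T cells carried RNA of antigen-presenting cells. Cd74 had at least 30 UMIs in 13 of 60 T cells, which held 95.4% of all its UMIs in T cells; 5 were in pool 1, 8 in pool 2 and 0 in pool 3. These 13 cells had a median of 12848 RNA UMIs, against 5204 in the other 47, and a median MHCII tag of 1302 UMIs, against 103. Cd209a, a dendritic cell lectin, was read in 5 of the 13 and 0 of the 47, and Cxcl9, an interferon-induced chemokine, in 11 of the 13 and 10 of the 47. Whether such barcodes hold more than 1 cell was not tested.

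Without those 13 cells the genes that lead the description were still read in the other 47: Icos at 836 CPM in 39 cells, Ctla4 at 667 CPM in 30, Tnfrsf4 at 902 CPM in 32 and Foxp3 at 52.85 CPM in 8. The MHCII tag difference from NK cells was then 1.12 over 6 samples and higher in 6 of 6. Its adjusted p was 0.0586 in the exact permutation test, and 0 of 30 tags passed. With all 6 differences of the same sign, its unadjusted p is the smallest that 6 samples can give. Tags did pass in another setting with 6 samples, that with at least 2 CD3 UMIs. The part of the drop from 8 samples to 6 in the lack of calls was not tested. The CD74 tag difference was 0.26, higher in 5 of 6.

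Marker lists of other cells were summed by pool. The 9 dendritic genes summed to 8575, 11317 and 1016 CPM in T cells of pools 1, 2 and 3, against 3267, 2388 and 652 CPM in NK cells and 44762, 35397 and 38659 CPM in macrophages, with Xcr1 at 0. The 16 myeloid genes summed to 6785 to 9453 CPM in T cells, against 9401 to 10773 CPM in NK cells, 94782 to 122836 CPM in microglia and 52738 to 62472 CPM in macrophages. Fcer1g and Tyrobp are on this list and also on the NK list. They stood at 869 and 479 CPM in T cells, against 3879 and 2472 CPM in NK cells. The sums thus do not rank T cells against NK cells in myeloid RNA. Only 36 of 60 T cells had at most 5 UMIs of C1qa, C1qb, C1qc, Csf1r and Lyz2, against 507 of 524 NK cells. The 11 NK genes summed to 1691 to 4653 CPM in T cells, against 28058 to 33312 CPM in NK cells, with Klra4 at 0 and Ncr1 and Eomes each in 1 T cell. The 6 B cell genes summed to 88.0 CPM in T cells, against 55.8 CPM in NK cells, with Ighm in 20 T cells and Cd79b in 1, and Cd79a, Ms4a1 and Pax5 at 0. The 3 erythroid genes were at 0. The 5 neutrophil genes summed to 13.7 CPM in T cells, against 17.5 CPM in NK cells, and the 8 neural and vessel genes to 48.9 CPM, against 74.9 CPM. Their part in the tag differences was not tested beyond the values given.

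The tags of Cd4 and Cd8 cells could be set side by side only by pool, with no test, since 1 hashed sample had 3 cells of each kind. The Ly6C tag had medians of 298.5, 700.5 and 301 UMIs in Cd4 cells of pools 1, 2 and 3, against 1073, 1990 and 3678 in Cd8 cells. The centred log ratio differed by -1.15, -1.05 and -1.80. Its gene Ly6c2 went the same way, at 39.1, 79.4 and 23.8 CPM in Cd4 cells, against 853.5, 271 and 2448 CPM in Cd8 cells. The MHCII tag went the opposite way in every pool, at 1.02, 0.78 and 2.25. At least 30 Cd74 UMIs were in 6 of 33 Cd4 cells and 1 of 10 Cd8 cells.

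**Figure D5:**
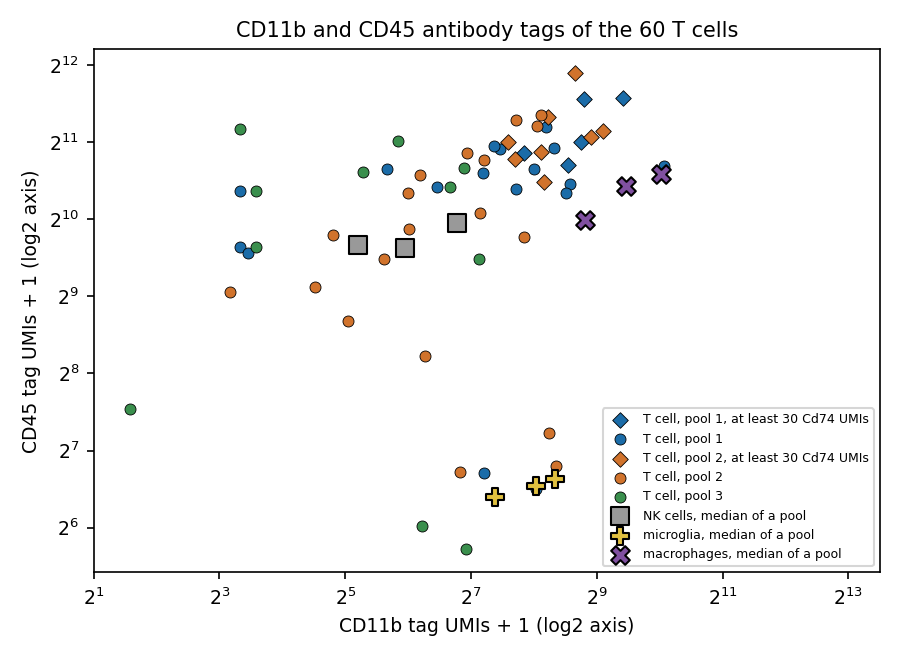
CD11b tag (horizontal axis) against CD45 tag (vertical axis), each as UMIs plus 1 on a log2 axis, for the 60 T cells by pool, with diamonds for cells with at least 30 Cd74 UMIs and large symbols for the median of NK cells, microglia and macrophages in each pool. A set of 7 T cells lies at 150 CD45 tag UMIs or fewer, near the microglia medians.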

How the data were processed

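Per the labels, 3 pools gave an mRNA and an antibody tag library each, made with droplet 3' chemistry. The deposited matrices hold UMI counts per gene or tag and barcode, not normalized by the authors, with genes joined on 30406 shared identifiers. Per the submitters' processing notes, the tools were Seurat 3, bcl2fastq 2.20.0.422 and Cell Ranger in versions 3.0.1 and 4.0.0, on mm10; software version 3.1.0 stands in the header of pool 1, and 4.0.0 in the others. The members and gene lists were chosen with earlier results of these data known.

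Hashtag agreement removes doublets of different samples only; no doublet caller was run. CPM are of summed UMIs, shown for the lists named and for the 10 largest T over NK folds among genes with at least 50 T cell UMIs; Sdf4, Ms4a4b, Tnfsf11, Cxcl9, the limits of 30 Cd74 UMIs and 150 CD45 tag UMIs and the motif were picked after values were seen. A list gene counts as higher or lower past 2-fold in each pool. NK cells had at least 3 UMIs of Klre1 and Klrb1c, microglia at least 3 of P2ry12 and Tmem119, macrophages at least 3 of Ms4a7, each with the other limits.

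Tests used exact sign permutations, all sign patterns enumerated, for tags (scipy 1.17.1 for the unpaired alternative) and edgeR 4.0.16 (TMM, filterByExpr) with DESeq2 1.42.0 as an alternative, at a threshold of 0.05, tested on simulated data: of 200 genes changed 8-fold among 474 in the Cd4 against Cd8 design, 200 were called, with 4 false calls, at a simulated dispersion of 0.151. The changed genes were drawn from those above the median of the mean CPM, and every gene had that same dispersion. The simulation thus does not cover genes with low counts. In the real fit Cd8b1 and Cd8a, which chose the kinds, had log2 differences of -8.92 and -7.72 with edgeR adjusted p of 0.106 and 0.169, so differences above 8-fold can go uncalled. The Cd4 against Cd8 fit was planned over hashed samples and fell back to pools. Pools serve as replicates 1 to 3. Pairing came from the within-sample design, in which a sample gives both populations. Upstream sequences are from RefSeq, GRCm38.p6.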

Additional observations from a re-analysis of the deposited data

How the results depend on the processing

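The shares of T cells depended on the limits. Keeping only T cells with low myeloid RNA gave 0.11% in pool 1 and 0.182% in pool 2, and a share of all filtered barcodes with no hashtag filter gave 0.0935% in pool 3; the other 15 alternatives stayed within the main intervals. For tags, Tmem119 counted among them, 0 differences passed in the 5 samples by the exact permutation test, 0 at an unadjusted p under 0.05, and the counts against NK cells, microglia and macrophages rose to 5, 6 and 8 with at least 3 cells and to 4, 7 and 8 with at least 2 CD3 UMIs (6 samples). With at least 3 cells they were 7, 5 and 9 on raw tag UMIs, 4, 6 and 5 per 1000 tags and 7, 6 and 6 without cells of 150 CD45 tag UMIs or fewer, these choices made after seeing the data; MHCII against macrophages did not pass in the last (adjusted p 0.122, exact permutation test). With 1 pool left out, when too few samples remain for any tag to pass, CD11b differences ran from -0.63 to -0.33 against NK cells, -1.27 to -1.07 against microglia and -0.73 to -0.42 against macrophages. With no replicate block, that is without pairing by sample, 3, 5 and 5 tags passed, CD11b among them against microglia (-1.18) and macrophages (-0.59).

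CD11b passed against microglia at -1.30, -1.22, -1.63, -2.48 and -1.41 and against macrophages at -0.69, -0.64, -2.97, -0.997 and -0.77 in the same 5 settings in that order, and against NK cells at -0.57 without the low CD45 cells. On raw tag UMIs in the 5 and 8 samples, differences from NK cells turned to 0.48 and 0.36 for CD11b, 0.12 and 0.063 for CD45 and 0.0066 and 0.12 for CD49d. From macrophages they turned to -0.40 and -0.52 for CD45 and -1.10 and -1.13 for Tmem119. Raw UMIs are not set against the total tags of a cell; the cause was not tested further. The 12 tag differences not given above changed sign in 54 of 204 alternatives.

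Genes called between Cd4 and Cd8 T cells went from 0 to 4 with DESeq2, 2 with library size alone, 15 with no filter on low counts, 7 with low myeloid RNA and 2 with at least 2 CD3 UMIs, and ranged from 0 to 10 when 1 pool was left out; 10 were called without pool 1, 0 without pool 2 and 2 without pool 3. With no replicate block 0 were called and 37 had an unadjusted p under 0.05. Adjustment without the genes that chose the cells or the kinds, added after seeing the data, gave 0 genes, and in the other settings 4 with DESeq2, 0 with library size alone, 15 with no filter, 3 with low myeloid RNA, 0 with at least 2 CD3 UMIs and 6, 0 and 1 without pools 1, 2 and 3. The log2 difference of Nkg7 turned to -0.37 with at least 3 cells of each kind and ranged from -0.37 to 1.99 when 1 pool was left out (-0.37 without pool 2), and that of Cd52 from -1.30 to 0.37 (0.37 without pool 3); neither was called. At least 10 cells of each kind could not be run, nor any test of Cd4 against Cd8 tags, for want of cells. No sample had more than 14 T cells; the part of cell number in the lack of calls was not tested.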

Other observations

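A few T cells held large amounts of cytokine transcripts. Ccl1, a chemokine that binds the receptor CCR8, had 210 UMIs in 6 T cells, 132 of them (62.9%) in 1 cell, and 0 UMIs in NK cells. Ccr8 itself was in 7 T cells. Areg, the growth factor amphiregulin, was in 10 T cells, of which 5 were among the 11 Foxp3 cells, and stood at 347, 146 and 0 CPM in pools 1, 2 and 3. Tnfsf11, which encodes RANKL, was in 21 T cells, 20 of which also held Cd4.

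Sdf4, a gene of a calcium-binding protein of the secretory pathway, was picked after its values were seen because it stood beside Tnfrsf4 at the top of the Cd4 over Cd8 test (log2 difference 3.55 ± 0.60 SE, edgeR adjusted p 0.152). Its annotated span ends on chromosome 4 at 156013610, after the start of Tnfrsf4 at 156013595, so the neighbours share 16 bases, and both are on the plus strand. Sdf4 was read in 43 of the 43 T cells with a Tnfrsf4 UMI at 1255 CPM, and in 12 of the 17 without at 359 CPM, against 144 CPM in NK cells and 192 CPM in microglia. The shared stretch lies at the end of Sdf4 and the start of Tnfrsf4, whose span runs on to 156016613. Reads of overlapping neighbours on 1 strand cannot be told apart there. The libraries were of 3' chemistry, and the part of such reads in either count was not tested.

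In 7 T cells the CD45 tag had 52 to 149 UMIs, while the next T cell had 185 and the lowest NK cell 252. These cells had 4 to 23 CD3 UMIs and a CD11b tag of 74 to 325 UMIs. Icos was read in 5 of the 7, Tnfrsf4 in 5, Trbc2 in 6, Trac in 3 and Ctla4 in 2. Ptprc, the gene of CD45, was in 6 and the microglia and macrophage gene C1qa in 7. The CCR2 tag, present in pools 2 and 3, had medians of 18 and 13 raw UMIs in T cells. Its medians were 7 and 11 in NK cells, 10 and 13 in microglia and 70 and 99.5 in macrophages. In pool 3 T cells were thus at the level of microglia. Raw UMIs are not set against the total tags of a cell.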
